A study of Mus musculus with 8 samples.

Results

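Insr, Igf1r, Igf2r, Igf1, Igf2, Irs1, Irs2, Grb10, Akt2 and Foxo1 encode the receptors, ligands, adaptors and effectors by which alpha cells read insulin and the insulin-like growth factors (IGFs). The 10 genes were picked by gene symbol from the platform annotation, and all 10 were measured, each by 1 probe set, among 19494 named genes. RNA came from alphaTC1.9 cells, a clonal mouse line derived from a glucagon-producing islet tumour, hybridised to Clariom S arrays. The IDE-KD group, 4 arrays, held cells in which a small interfering RNA targeted Ide, the gene of insulin-degrading enzyme, and the control group, 4 arrays, held control cells of the line. All cells grew in serum-containing medium with 16 mM glucose and without added treatment. The labels call the replicates biological and the RNA replicates independent. They do not say whether these came from separate cultures, what the control cells received or how long the knockdown lasted, so the p-values below weigh a difference against the spread between these arrays, part of which may be technical.

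Insulin and IGFs bind receptor tyrosine kinases that phosphorylate the substrates IRS1 and IRS2. The substrates recruit PI3-kinase, which leads to activation of AKT, and AKT phosphorylates FOXO1 and so keeps it out of the nucleus. In alpha cells insulin acting through its receptor is known to restrain glucagon secretion, and insulin-degrading enzyme is a protease that breaks down insulin and other small peptides, IGF-II among them. IGF2R is a different kind of receptor, which takes IGF-II and mannose 6-phosphate-tagged enzymes to lysosomes. In mice Igf2, Igf2r and Grb10 are imprinted genes.

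Array values are log2 expression values, where 1 unit is a 2-fold change, and the median of the 22142 probe sets tested was 5.11 to 5.17 on IDE-KD arrays and 5.10 to 5.14 on control arrays. As a guide to low signal, the array's 5222 intron control rows had a median of 4.18 and a 95th percentile of 6.87. The alpha cell marker Gcg averaged 12.06 in both groups and Irx2, an alpha cell transcription factor gene, 8.65 in IDE-KD and 8.72 in control cells. Over 7 alpha cell markers the mean level was 8.97 to 9.08 on IDE-KD arrays and 8.99 to 9.09 on control arrays. The same mean over 7 beta cell markers was 4.13 to 4.37 on IDE-KD and 4.14 to 4.24 on control arrays, and over 7 fibroblast and stellate cell markers 3.97 to 4.23 on IDE-KD and 3.78 to 4.14 on control arrays. In RNA of a whole culture, fewer cells of a type and less RNA per cell cannot be told apart. It was 4.34 to 4.81 on IDE-KD and 4.12 to 4.71 on control arrays for 4 delta, PP and epsilon cell markers, 3.20 to 3.51 on IDE-KD and 3.09 to 3.33 on control arrays for 6 immune and endothelial markers, and 4.45 to 4.55 on IDE-KD and 4.42 to 4.52 on control arrays for 6 exocrine and duct markers. IDE-KD arrays 1 and 3 had the lowest SD over the tested probe sets, 2.16 and 2.13, against 2.20 to 2.25 on the other 6 arrays.

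Ide read 7.91, 8.14, 7.92 and 8.05 on IDE-KD arrays and 8.66, 8.62, 8.72 and 8.48 on control arrays, a log2 difference of -0.62 (SE 0.12). Every IDE-KD array lay below every control array (exact two-sided permutation p = 0.0286, the smallest that 4 against 4 arrays allow), although limma's p adjusted over all probe sets was 1.00. The comparison of the 10 genes was therefore made at a remaining Ide signal of 0.652 of the control level on the array's scale.

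None of the 10 genes passed the test between IDE-KD and control cells. With limma and Benjamini-Hochberg adjustment over all 22142 probe sets at a threshold of 0.05, 0 of the 10 genes were called, as were 0 of all probe sets, a background of 0%. At an unadjusted limma p under 0.05 there were also 0 of the 10 genes, against 4.59% of all probe sets, and the groups overlapped at all 10 genes, whereas they did not overlap at 2.80% of all probe sets. Fitted means were higher in IDE-KD cells for 3 genes and lower for 7, with a median log2 difference of -0.03, against 0.0074 over all probe sets, of which 47.9% were lower. The differences ran from -0.15 for Irs1 to 0.22 for Igf1. The 95% confidence interval left out a 2-fold change in either direction for all 10 genes, as it did for 99.7% of all probe sets. It left out a 1.5-fold change for 9 of the 10 (90%), where 83.6% of all probe sets had an interval within 1.5-fold. The exception was Igf1, whose interval reached 1.52-fold higher. Igf1r, Igf1, Igf2, Irs1 and Foxo1 had mean signals below the 95th percentile of the intron control rows, where log2 differences may be compressed. For these genes the intervals bound the difference in array signal, and a larger change in transcript is not excluded.

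**Figure D1:**
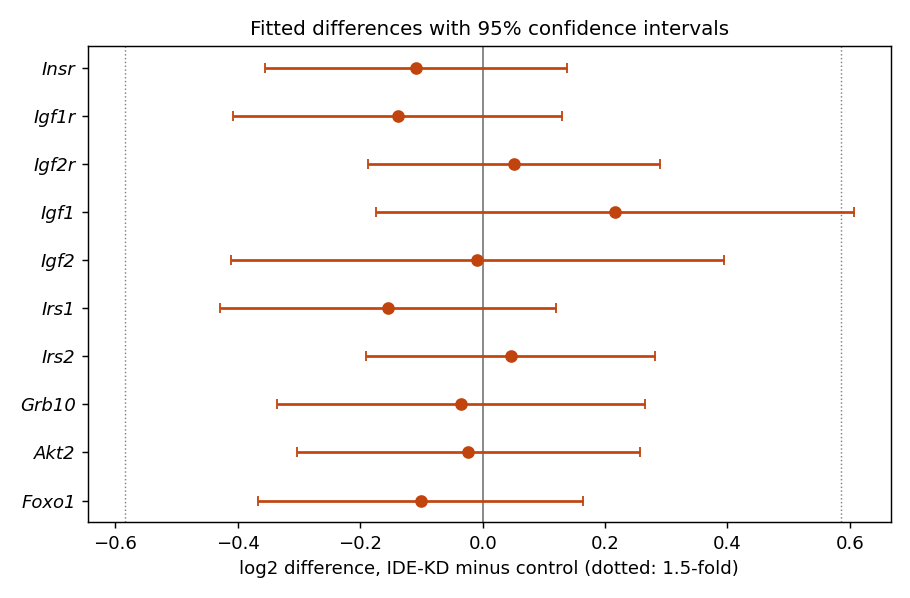
Fitted log2 differences, IDE-KD minus control, of the 10 genes (points) with limma's 95% confidence intervals (bars); dotted lines mark a 1.5-fold change in either direction. All 10 intervals span 0, and the interval of Igf1 alone crosses a dotted line.

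Among the receptors, Insr, which encodes the insulin receptor, gave a strong signal, above the 95th percentile of the intron control rows on all 8 arrays. Insr read 8.82, 8.66, 8.74 and 8.79 on IDE-KD arrays and 8.82, 9.02, 8.76 and 8.84 on control arrays. IDE-KD arrays 2 and 3 lay below every control array and the other 2 within the control range, so the groups overlapped. The means thus differed by -0.11 on the log2 scale (SE 0.11, 95% confidence interval -0.36 to 0.14; exact two-sided permutation p = 0.143). A loss of more than 1.28-fold therefore fell outside the interval. Control array 2 carried the highest Insr value, and without it the difference was -0.06.

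Igf1r, the gene of the IGF-I receptor, gave a weak signal, above the median of the intron control rows on all 8 arrays but above their 95th percentile on 0. It read 5.32, 5.42, 5.37 and 5.28 on IDE-KD arrays and 5.38, 5.74, 5.50 and 5.32 on control arrays. The IDE-KD values were tightly grouped, with an SD of 0.06, against 0.18 in control cells, and 2 of them lay below the control range. The fitted difference was -0.14 on the log2 scale (SE 0.12, 95% confidence interval -0.41 to 0.13; exact two-sided permutation p = 0.2). It was -0.06 without control array 2, which was the highest array for Igf1r as well.

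Igf2r, the gene of the lysosomal sorting receptor, read 9.60, 9.47, 9.59 and 9.53 on IDE-KD arrays and 9.37, 9.53, 9.54 and 9.54 on control arrays. The 8 values spanned 0.22 in all, and control array 1 stood below the other 7. Its log2 difference of 0.05 had an interval of -0.19 to 0.29 (SE 0.11; exact two-sided permutation p = 0.457), and the value was 0.01 without control array 1 and 0.0062 without IDE-KD arrays 1 and 3. The pooled SD of Igf2r, 0.07, was at percentile 1.48 of all probe sets, so its spread between replicates was among the narrowest on the array.

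Insr and Igf1r were also compared as a pair, by subtracting the Igf1r value from the Insr value on each array and comparing the result between groups. Relative to the control mean of this log2 contrast, IDE-KD arrays lay at 0.13, -0.14, -0.0029 and 0.13 and control arrays at 0.07, -0.09, -0.12 and 0.14. Between IDE-KD and control cells the contrast differed by 0.03 (SE 0.09; exact two-sided permutation p = 0.743), and its sign turned when single arrays were left out (-0.0098 without control array 3). An unequal change of the 2 receptor transcripts was thus not detected with 4 arrays a group. Because the Igf1r signal was weak and may be compressed, the contrast could hide or distort such a change.

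**Figure D2:**
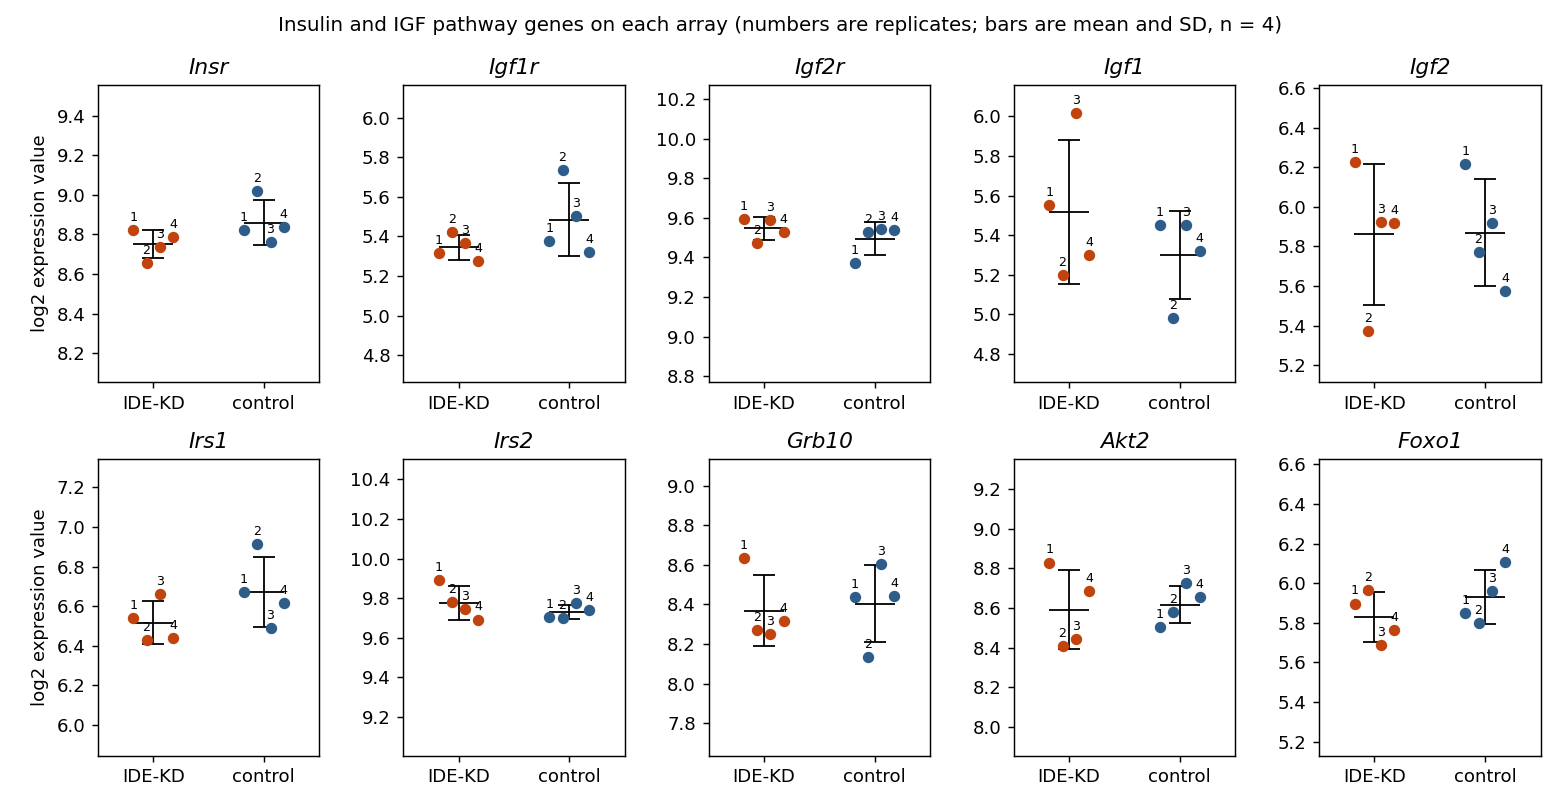
Log2 expression values of the 10 genes on each array, IDE-KD left and control right in every panel; numbers are replicate numbers, the horizontal mark is the group mean and the bar its SD (n = 4). All panels span 1.5 log2 units, and the groups overlap in each, with the widest spread at Igf1 and Igf2.

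The ligand genes had the widest spread of the 10. Igf1, which encodes IGF-I, read 5.55, 5.20, 6.02 and 5.30 on IDE-KD arrays and 5.45, 4.98, 5.45 and 5.32 on control arrays. IDE-KD array 3 was 0.72 above the control mean and the other IDE-KD arrays between -0.10 and 0.25 from it. At 0.22, its log2 difference was the highest of the 10 genes (SE 0.18, 95% confidence interval -0.17 to 0.61; exact two-sided permutation p = 0.429). It was 0.05 without IDE-KD array 3, 0.11 without control array 2 and -0.05 without IDE-KD arrays 1 and 3 together, so even its sign depended on the arrays included.

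Igf2, which encodes IGF-II, read 6.23, 5.37, 5.93 and 5.92 on IDE-KD arrays and 6.22, 5.77, 5.92 and 5.58 on control arrays. Array 1 was the highest in both groups, and IDE-KD array 2 was the lowest of the 8. The means were 5.86 ± 0.36 in IDE-KD and 5.87 ± 0.27 in control cells (SD, n = 4 each), and their difference was -0.0091 on the log2 scale (SE 0.19, 95% confidence interval -0.41 to 0.39; exact two-sided permutation p = 1). Without IDE-KD array 2 it was 0.15, and without IDE-KD arrays 1 and 3 it was -0.22. Both ligand genes had weak signals, above the intron row median on all 8 arrays and above its 95th percentile on 0, and their pooled SDs, 0.30 and 0.32, were at percentiles 82.0 and 85.0 of all probe sets.

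Of the receptor substrates, Irs1 had the lowest fitted difference of the 10 genes. Its signal was above the 95th percentile of the intron control rows on 1 of 8 arrays. It read 6.54, 6.43, 6.66 and 6.44 on IDE-KD arrays and 6.67, 6.91, 6.49 and 6.62 on control arrays. IDE-KD arrays 2 and 4 lay below every control array, while IDE-KD arrays 1 and 3 fell within the control range. Its fitted log2 difference was -0.15 (SE 0.13, 95% confidence interval -0.43 to 0.12; exact two-sided permutation p = 0.171). It was -0.07 without control array 2, the highest for Irs1 as for both receptor kinases, and -0.24 without IDE-KD arrays 1 and 3.

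Irs2, whose product is the other main substrate and whose transcription FOXO1 is known to raise in liver, had the narrowest spread of the 10, a pooled SD of 0.07 at percentile 1.01 of all probe sets. It read 9.89, 9.78, 9.74 and 9.69 on IDE-KD arrays and 9.71, 9.70, 9.78 and 9.74 on control arrays. IDE-KD array 1 was the highest and IDE-KD array 4 the lowest of the 8. For the group means the log2 difference was 0.05 (SE 0.11, 95% confidence interval -0.19 to 0.28; exact two-sided permutation p = 0.457), and 0.0067 without IDE-KD array 1, so a change of more than 1.22-fold upward lay outside the interval.

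The 2 substrate transcripts were compared as a pair in the same way as the receptors. Relative to the control mean of the Irs1 minus Irs2 contrast, IDE-KD arrays lay at -0.29, -0.29, -0.02 and -0.20 and control arrays at 0.02, 0.27, -0.23 and -0.07. IDE-KD minus control, the contrast differed by -0.20 (SE 0.12; exact two-sided permutation p = 0.143), and the groups overlapped. It stayed below 0 when each array was left out, at -0.28 without control array 3 and -0.11 without control array 2. Irs1 was above the 95th percentile of the intron control rows on 1 array and Irs2 on 8. Compression of the weaker signal could thus distort this contrast.

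The stretches of genome before the starts of Irs1, Irs2 and Igf2r are printed here because, of the 9 genes with a RefSeq promoter entry, these 3 share a sequence word that the choice of genes did not use. The word is TCACGTG, an E-box of the kind bound by factors such as TFE3 and TFEB, searched on both strands (CACGTGA on the other) and chosen after the sequences had been read. Of the 16 member windows of 250 bases before a start, 3 held it, against 3.13% of 32851 such windows of all genes. Because the word was picked from these same windows, and some genes gave several windows, these shares are descriptive and test no excess. The word began 116 bases before the start of Irs1 and 45 before that of Irs2, and Igf2r held 2 copies, beginning 49 and 8 bases before its start. The longest runs shared by the Irs1 and Irs2 windows were 2 of 10 bases, gtcacgtgtt, which contains the word, and tgttttgctc, which does not. Capitals mark the word, with the A that completes it on the other strand in Igf2r. The windows, from RefSeq on GRCm38.p6, all lie on the minus strand, at chr1:82291440-82291689 for Irs1, chr8:11008930-11009179 for Irs2 and chr17:12769707-12769956 for Igf2r, and are written 5′ to 3′.
Irs1: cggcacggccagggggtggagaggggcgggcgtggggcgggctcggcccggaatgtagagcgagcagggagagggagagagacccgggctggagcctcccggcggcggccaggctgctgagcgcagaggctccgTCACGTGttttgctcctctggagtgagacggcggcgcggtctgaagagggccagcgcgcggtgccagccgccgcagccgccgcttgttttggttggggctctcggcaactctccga
Irs2: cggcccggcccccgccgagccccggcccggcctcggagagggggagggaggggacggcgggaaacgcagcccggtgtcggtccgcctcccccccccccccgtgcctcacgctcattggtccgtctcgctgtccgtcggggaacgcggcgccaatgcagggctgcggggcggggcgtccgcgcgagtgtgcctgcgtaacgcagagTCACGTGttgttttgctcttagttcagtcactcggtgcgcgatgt
Igf2r: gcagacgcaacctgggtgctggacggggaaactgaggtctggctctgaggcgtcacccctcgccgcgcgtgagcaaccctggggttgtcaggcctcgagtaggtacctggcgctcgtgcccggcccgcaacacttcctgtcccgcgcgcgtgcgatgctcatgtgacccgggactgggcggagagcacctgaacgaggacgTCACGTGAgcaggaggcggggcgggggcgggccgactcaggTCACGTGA

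All 3 windows were also rich in CpG dinucleotides, with 28 in Irs1, 34 in Irs2 and 27 in Igf2r, where the median window of all genes held 6 and the upper quartile began at 16. Of the 16 member windows, 7 lay above 16, so richness in CpG was not particular to these 3. The others were Igf1r with 42, a Grb10 window with 40, an Igf2 window with 22 and Foxo1 with 20. The Igf1 window held 5. The FoxO core motif GTAAACA, searched on both strands (TGTTTAC on the other), was in 0 of the 16 windows and in 3.17% of all windows. No other form of a FoxO site was searched, so its absence does not mean that the windows lack FoxO-type sites. A match or its absence describes these letters only.

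Grb10 encodes an adaptor that binds the activated insulin and IGF-I receptors and restrains their signal. It read 8.64, 8.27, 8.25 and 8.31 on IDE-KD arrays and 8.43, 8.14, 8.60 and 8.44 on control arrays. IDE-KD array 1 stood apart from the other 3 of its group, and the control arrays covered nearly the whole range. Between the group means the log2 difference was -0.04 (SE 0.14, 95% confidence interval -0.34 to 0.27; exact two-sided permutation p = 0.829), and it was -0.12 without control array 2 and 0.03 without control array 3.

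Akt2, the gene of the AKT kinase most tied to insulin's metabolic effects in mice, read 8.83, 8.41, 8.44 and 8.69 on IDE-KD arrays and 8.51, 8.58, 8.72 and 8.65 on control arrays. The IDE-KD arrays fell on both sides of the control range, with array 1 above it and arrays 2 and 3 below it. The means were 8.59 ± 0.20 in IDE-KD and 8.62 ± 0.09 in control cells (SD, n = 4 each), and they differed by -0.02 on the log2 scale (SE 0.13, 95% confidence interval -0.30 to 0.26; exact two-sided permutation p = 0.886). It was -0.10 without IDE-KD array 1 and 0.04 without IDE-KD array 2.

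Foxo1, the gene of the transcription factor that AKT inhibits, read 5.90, 5.97, 5.69 and 5.76 on IDE-KD arrays and 5.85, 5.80, 5.96 and 6.11 on control arrays. IDE-KD arrays 3 and 4 lay below every control array, and the other 2 within the control range. The log2 difference was -0.10 (SE 0.12, 95% confidence interval -0.37 to 0.16; exact two-sided permutation p = 0.371), and it was -0.04 without control array 4. The Foxo1 signal was weak, above the 95th percentile of the intron control rows on 0 of 8 arrays.

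The highest and lowest values of the 10 genes fell on arrays of both groups. IDE-KD array 1 had the highest of the 8 values for 5 genes, namely Igf2r, Igf2, Irs2, Grb10 and Akt2, and IDE-KD array 2 the lowest for 4, namely Insr, Igf2, Irs1 and Akt2. Control array 2 had the highest values of Insr, Igf1r and Irs1 and the lowest of Igf1 and Grb10. Averaged over the 10 genes, IDE-KD arrays 1 to 4 lay 0.09, -0.14, 0.0056 and -0.07 from the control mean, and control arrays between -0.02 and 0.04 on control arrays. IDE-KD array 1 thus lay above all control arrays and IDE-KD arrays 2 and 4 below them. IDE-KD arrays 1 and 3 are those with the lowest SD over all probe sets. Log2 differences without both are given beside Igf2r, Igf1, Igf2 and Irs1. They were -0.14 for Insr, -0.13 for Igf1r, 0.0037 for Irs2, -0.11 for Grb10, -0.07 for Akt2 and -0.06 for Foxo1. Beyond this, 3 other array normalizations and array weights, the part of the low SD in the genes' values was not tested.

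**Figure D3:**
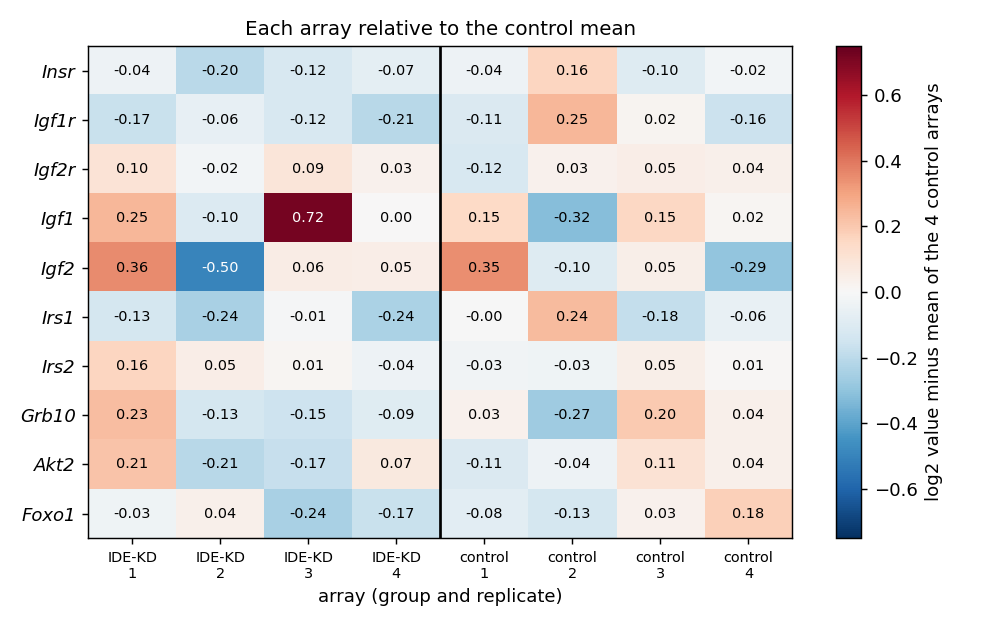
Log2 value of each of the 10 genes (down the page) on each array (across, IDE-KD left and control right), as the difference from the mean of the 4 control arrays; red is higher and blue lower. The column of IDE-KD array 1 holds 5 of the highest values and that of IDE-KD array 2 holds 4 of the lowest, and the single highest cell is Igf1 on IDE-KD array 3, at 0.72.

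Pairs of the 10 genes were set against each other by their deviations from the group means over the 8 arrays, which share normalization and array quality, so the correlations are descriptive. Of 45 pairs 27 were positive, with a median Pearson r of 0.19. The highest were Irs2 with Grb10 (r = 0.76), Insr with Irs1 (r = 0.76) and Grb10 with Akt2 (r = 0.69), and the lowest were Irs1 with Foxo1 (r = -0.63) and Irs1 with Grb10 (r = -0.60). Control array 2, on which Insr, Igf1r and Irs1 were at their highest and Grb10 at its lowest, is among the 8 points of each of these pairs.

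The genes most like 4 of the members were sought by Pearson correlation over the 8 arrays, among 9791 named probe sets at or above the median level. Insr was most like Tmem86a (r = 0.95), H2ax (r = 0.95) and Igsf8 (r = 0.95), with 23 probe sets above r = 0.9. Igf1r was most like Ptk7 (r = 0.93), Lrr1 (r = 0.93) and Rnf34 (r = 0.92), with 7 above 0.9. Irs2 was most like Ctxn1 (r = 0.97), Abca7 (r = 0.96) and Zfp938 (r = 0.92), also with 7 above 0.9. Foxo1 was most like Srsf6 (r = 0.96), Hps1 (r = 0.95) and Ino80d (r = 0.93), with 11 above 0.9. None of the other 9 genes was among the 3 nearest of any of these 4, and with 8 arrays such values describe these arrays only.

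The rest of the pathway was described with 7 lists of other genes, from ligands to FoxO targets, of which 67 of 75 entries were measured and 8 are not analysed here. Of these 67 genes 0 were called higher and 0 lower by limma at an adjusted p under 0.05. Means were higher in IDE-KD cells for 30 and lower for 37, with a median log2 difference of -0.01. At an unadjusted limma p under 0.05 there was 1 gene (1.49%, against 4.59% of all probe sets), and the groups did not overlap at 3 genes (4.48%, against 2.80% of all probe sets).

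Those 3 genes were Klf15, Igfbp5 and Trib3. Klf15, a FoxO target in liver and muscle that encodes a Krüppel-like transcription factor, read 4.56, 4.74, 4.53 and 5.10 on IDE-KD arrays and 4.00, 4.46, 4.31 and 4.41 on control arrays, a log2 difference of 0.44 (SE 0.16) at rank 292 of 22142 by limma's p. Its mean levels, 4.73 in IDE-KD and 4.29 in control cells, were below the 95th percentile of the intron control rows. Igfbp5, which encodes an IGF-binding protein, read 9.86, 9.89, 9.90 and 9.84 on IDE-KD arrays and 9.73, 9.84, 9.69 and 9.70 on control arrays. The groups were only just apart, as IDE-KD array 4 was the lowest of its group and control array 2 the highest of the controls, and the log2 difference was 0.13 (SE 0.11). Trib3, whose pseudokinase product binds AKT, read 5.40, 5.42, 5.51 and 5.55 on IDE-KD arrays and 5.68, 5.95, 5.58 and 5.67 on control arrays, with a log2 difference of -0.25 (SE 0.12). Its mean levels, 5.47 in IDE-KD and 5.72 in control cells, were also below that 95th percentile. Groups of 4 arrays that do not overlap always give the smallest exact two-sided permutation p, 0.0286. That p thus restates how these 3 genes were picked and is no further test of them. None passed limma's adjusted threshold.

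By role, 6 of 8 measured ligands and binding proteins had a higher mean in IDE-KD cells and 2 a lower one (median log2 difference 0.15). Igfbp4 stood at 0.21 (SE 0.14). Only Igfbp5 of the 8 had a mean above 6.87, the upper guide to low signal. With 0 genes above 6.87, beta (5 of 7, median 0.13) and delta, PP and epsilon markers (4 of 4, 0.18) leaned higher too. So did fibroblast and stellate (6 of 7, 0.11) and immune and endothelial markers (5 of 6, 0.06). The 3 FoxO factors other than Foxo1, also with 0 above 6.87, did not (1 higher, median -0.02). Among the members with means below 6.87, Igf1 was higher, and Igf1r, Igf2, Irs1 and Foxo1 were lower. Of 7 alpha cell markers, 5 of them above 6.87, 3 were higher (median -0.02), as were 52.1% of all probe sets. Whether low signal shifted the ligand list was not tested. Of 11 other receptors and adaptors 4 were higher and 7 lower (median -0.05), among them the docking protein gene Gab1 at -0.27 (SE 0.14) and the substrate gene Irs4 at 0.31 (SE 0.16), whose level of 3.02 in IDE-KD and 2.71 in control cells was below the intron row median. Receptor brakes had 5 of 8 higher and 3 lower (median 0.02), with Socs3, a cytokine-induced inhibitor of receptor signaling, at 0.13 (SE 0.14). None of these pathway lists held a gene past the adjusted threshold. Gab1 and Socs3 also had mean levels below 6.87.

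Further down the cascade, PI3K, AKT and mTOR genes were higher in 5 of 18 cases and lower in 13 (median -0.05). The translation repressor gene Eif4ebp1 stood at 0.33 (SE 0.16) and the PI3-kinase regulatory subunit gene Pik3r2 at -0.20 (SE 0.15). Of the 3 other FoxO factors 1 was higher and 2 lower, with Foxo3 at -0.03 (SE 0.14) and Foxo6 at 0.05 (SE 0.17). FoxO target genes divided into 7 higher and 9 lower of 16 (median -0.01), where Klf15 was followed by the gluconeogenic gene Pck1 at 0.25 (SE 0.19), whose level of 2.84 in IDE-KD and 2.60 in control cells was below the intron row median. The 4 measured genes of IGF receptor trafficking and IGF mRNA binding had 3 higher and 1 lower (median 0.05), with the other mannose 6-phosphate receptor gene, M6pr, at 0.14 (SE 0.11) and the ubiquitin ligase gene Nedd4 at -0.11 (SE 0.12). These lists likewise held no gene past the adjusted threshold in either direction.

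**Figure D4:**
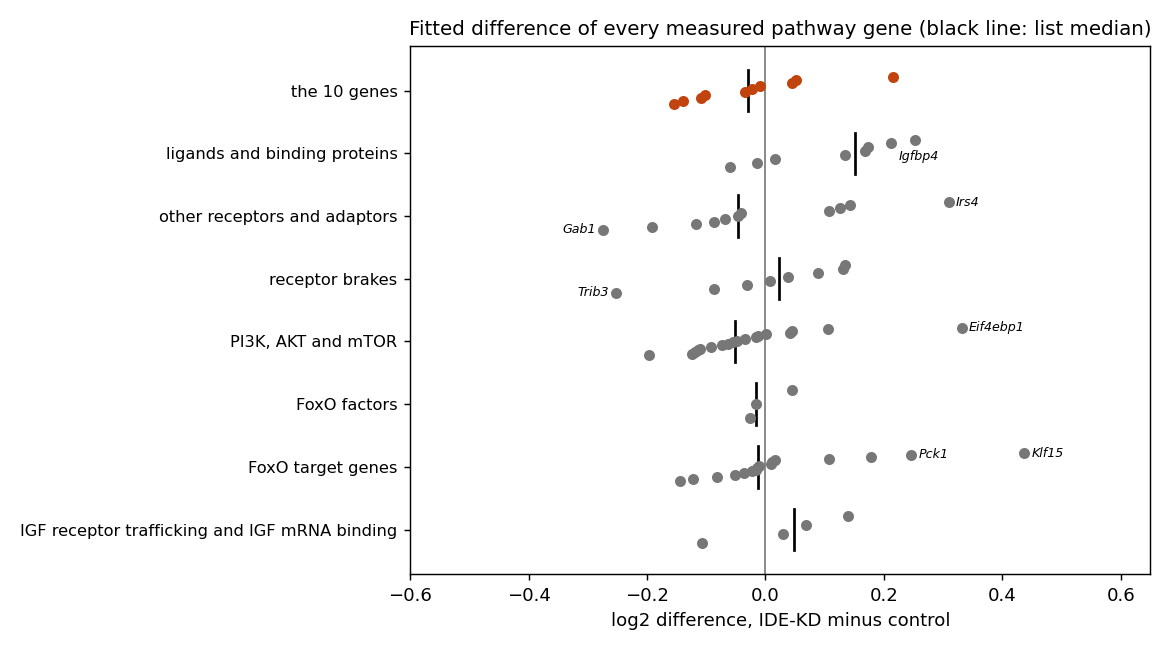
Fitted log2 difference, IDE-KD minus control, of each measured gene (points) in the 10-gene set and in 7 lists of other pathway genes, with a black line at each list's median. List medians lie between -0.05 and 0.15, and Klf15 at 0.44 is the point farthest from 0.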

How the data were processed

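The authors deposited 1 column of log2 expression values for each array, and per the submitters' processing notes the tools were RMA, oligo and limma, with no version or role. RMA usually corrects background, equalises the arrays' distributions and summarises probes, so a global change in RNA amount would be removed and low signals are compressed. Values were used as deposited. Of 29129 rows, 22142 transcript clusters were tested, and 6923 control and 64 unplaced rows were left out. Of the tested rows 19527 had 1 gene symbol in the platform annotation, 0 had several and 2615 had none. IDE-KD minus control was fitted over all 8 arrays with limma 3.58.1 in R 4.3.3 (lmFit and eBayes, no covariate, Benjamini-Hochberg adjustment, threshold 0.05), and an exact two-sided permutation test was run for single genes. The limma code was run on simulated data with independent normal errors, which checks the code and not the power on these arrays. Precision is limited by the number of arrays, with a median half-width of 0.32 for the 95% interval. Named genes are the 10 members, Ide, the 2 genes of each pathway list with the smallest unadjusted p, and the 3 probe sets most correlated with Insr, Igf1r, Irs2 and Foxo1, predicted genes left out. A gene outside the members with several rows was taken at the row with the highest mean. Members, lists and alternatives were chosen with earlier results of these data known. No gene coordinates are printed because no label names a build for the probe sets, and promoter windows come from RefSeq on GRCm38.p6. Replicate numbers were not taken to pair the samples in the main fit, because the labels do not say that a number marks a shared culture. Same-numbered arrays of the 2 groups had deviations that correlated at 0.088 to 0.13, and other pairs at -0.23 to 0.21, which does not settle whether they are paired. Alternatives were 3 other array normalizations, array weights, a trended and robust variance prior, a filter on dim rows, a replicate block, and arrays left out.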

Additional observations from a re-analysis of the deposited data

Results flagged for a closer look

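In 26 sets of 4 arrays (each group of the 10 genes, of Ide and of the 2 within-array contrasts), 2 held an array far from the other 3, where chance gives about 1 in 20, or 1.3. Grb10 on IDE-KD array 1 was 8.64, above the other IDE-KD arrays, and Igf2r on control array 1 was 9.37, below the other control arrays. Without that IDE-KD array the Grb10 log2 difference was -0.12, and without that control array the Igf2r difference was 0.01.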

How the results depend on the processing

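Over 16 alternatives, 8 of them leaving out 1 array, limma called 0 of the 10 genes, 0 of the other pathway genes and 0 of all probe sets at an adjusted p under 0.05. At an unadjusted p under 0.05 the 10 genes stayed at 0, while all probe sets ranged from 519 (dim rows left out) to 1749 (IDE-KD arrays 1 and 3 left out). With the replicate block these counts were 0 of the 10 genes and 1253 of all probe sets, and no call changed. For the Irs1 minus Irs2 contrast the block used an exact sign-flip test of same-numbered pairs (p = 0.375). That test cannot reach as small a p as the 4 against 4 permutation test, so their p-values are not comparable. Of 4 IDE-KD arrays, 1 correlated best with the control array of its own number. Insr, Igf1r, Igf2r, Irs1, Irs2, Foxo1 and Ide kept their sign in all alternatives, as did the Irs1 minus Irs2 contrast in the 13 run for it. Leaving out 1 array at a time gave -0.13 to 0.15 for Igf2, -0.12 to 0.031 for Grb10, -0.10 to 0.038 for Akt2 and -0.0098 to 0.086 for the Insr minus Igf1r contrast, so these turned sign. Other reversals were Igf2 at 0.0060 after quantile normalization again, Akt2 at 0.0030 after cyclic loess, and, without IDE-KD arrays 1 and 3, Igf1 at -0.051 and the Insr minus Igf1r contrast at -0.0031. Beyond the number of arrays left, the cause was not tested. Igf1r, Igf1, Igf2, Irs1 and Foxo1 had mean signals below the 95th percentile of the intron control rows, where log2 differences may be compressed.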
